A study of Mus musculus with 6 samples.

Results

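Integrins and laminins were followed in whole thymus of mice in which the cytokine RANKL was switched on in keratin 5 cells. The set was chosen by name: gene symbols built like Itga and Itgb for integrins, or Lama, Lamb and Lamc for laminins, with at least 10 reads over the 6 libraries. Of 42 matching names the rule left out 2, and the other 40 of the 24054 genes in the table were members. They comprised 25 integrin subunits, 11 laminin chains and 4 genes whose names match but whose products are no integrin subunits. RNA came from thymus of 3 control libraries and 3 libraries of genotype K5-rtTA:TetO-RANKL, called RANKL here. The K5-rtTA transgene makes a doxycycline-dependent activator from the keratin 5 promoter, which is used by basal and medullary epithelium, and TetO-RANKL makes RANKL when that activator is on. Both groups received doxycycline in food and water, and the series text calls the controls monogenic without naming which transgene they carried. The series text gives 1 week of doxycycline from an age of 8 weeks and the sample text gives 2 weeks of it from 9 weeks, and the conflict is not resolved here. Libraries held 18254870 to 25357060 counted reads, of which the members took 0.203% to 0.449%. The labels do not say that libraries came from separate animals, and p-values therefore reflect only how these samples varied, which may be technical. Tnfsf11, the gene of RANKL, checked the labels, with 6.01, 6.34 and 8.89 CPM in control replicates 1, 2 and 3 and 3334, 4812 and 2389.7 CPM in RANKL replicates 1, 2 and 3.

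An integrin is a receptor made of an alpha and a beta subunit that together span the cell membrane, bind matrix or another cell outside, and couple to the actin or keratin cytoskeleton inside. A laminin is a cross-shaped secreted trimer of an alpha, a beta and a gamma chain, and laminins with type IV collagen form the sheet of basement membrane on which epithelium sits. In the thymus, epithelium contacts such matrix through laminin-binding integrins, and thymocytes and other leukocytes use beta 1, beta 2 and beta 7 integrins to adhere and move.

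Most of the set was higher in RANKL thymus. Of 39 members tested, 26 rose, 4 fell and 9 were not called by edgeR's quasi-likelihood test at an adjusted p under 0.05. Over all 16096 genes tested, 33.8% were called higher and 29.6% lower, 63.4% in either direction. The median log2 fold change (RANKL over control) was 1.34 over the tested members and -0.02 over all genes tested. In 26 tested members every RANKL library was above every control library, and in 4 every RANKL library was below, where 36.1% and 34.1% of all genes tested did so. At least 4-fold increases were called in 13 members, beside 17.2% of all genes tested. Laminin chains rose in 10 of 11, integrin subunits rose in 16 and fell in 2 of 24 tested, and the remaining 4 genes fell in 2. The summed CPM (read counts scaled to library size and, by TMM, to library composition) of the laminin chains went from 325 ± 88.2 to 1253 ± 148 (mean ± SD, n = 3 per group). Integrin subunits together went from 1944 ± 238 to 2890.2 ± 357.

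Many, but not all, lists of cell type markers moved as well. Summed CPM of 7 epithelial markers was 1437 to 1721 in control libraries and 5379.9 to 6728 in RANKL libraries, and 6 of the 7 rose. Summed thymocyte markers were 8200.1 to 9401 in control and 306 to 1019.7 in RANKL, and all 7 fell. Macrophage markers summed to 473 to 653 in control and 1508 to 2065 in RANKL, and all 7 rose. Neutrophil markers summed to 15.0 to 35.6 in control and 1883 to 4470.2 in RANKL, and all 6 in the table rose. Fibroblast markers summed to 311 to 349 in control and 2319 to 4607 in RANKL, and all 5 rose. Most of that RANKL sum was Col1a1 and Col1a2, which rose 40.4-fold and 19.8-fold by group means. Pdgfra rose 4.6-fold, Lum 2.19-fold and Dcn 1.55-fold. Endothelial markers summed to 188 to 230.0 in control and 249 to 346 in RANKL, and 4 of 6 rose. None of 5 B cell markers and none of 5 skeletal muscle markers was called. Dendritic cell markers rose in 3 and fell in 2 of 7, and Schwann cell markers rose in 1 and fell in 1 of 4. RANKL replicate 2 had the highest sum of the RANKL libraries for 8 lists: epithelium, cornified epithelium, macrophage, neutrophil, endothelium, fibroblast, smooth muscle with pericyte, and platelet markers. No marker on these lists was at 0 reads in all 3 libraries of a group. In bulk tissue, more cells of a type and more RNA per cell cannot be told apart, and the part of these cell types in the values below was not tested.

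**Figure D1:**
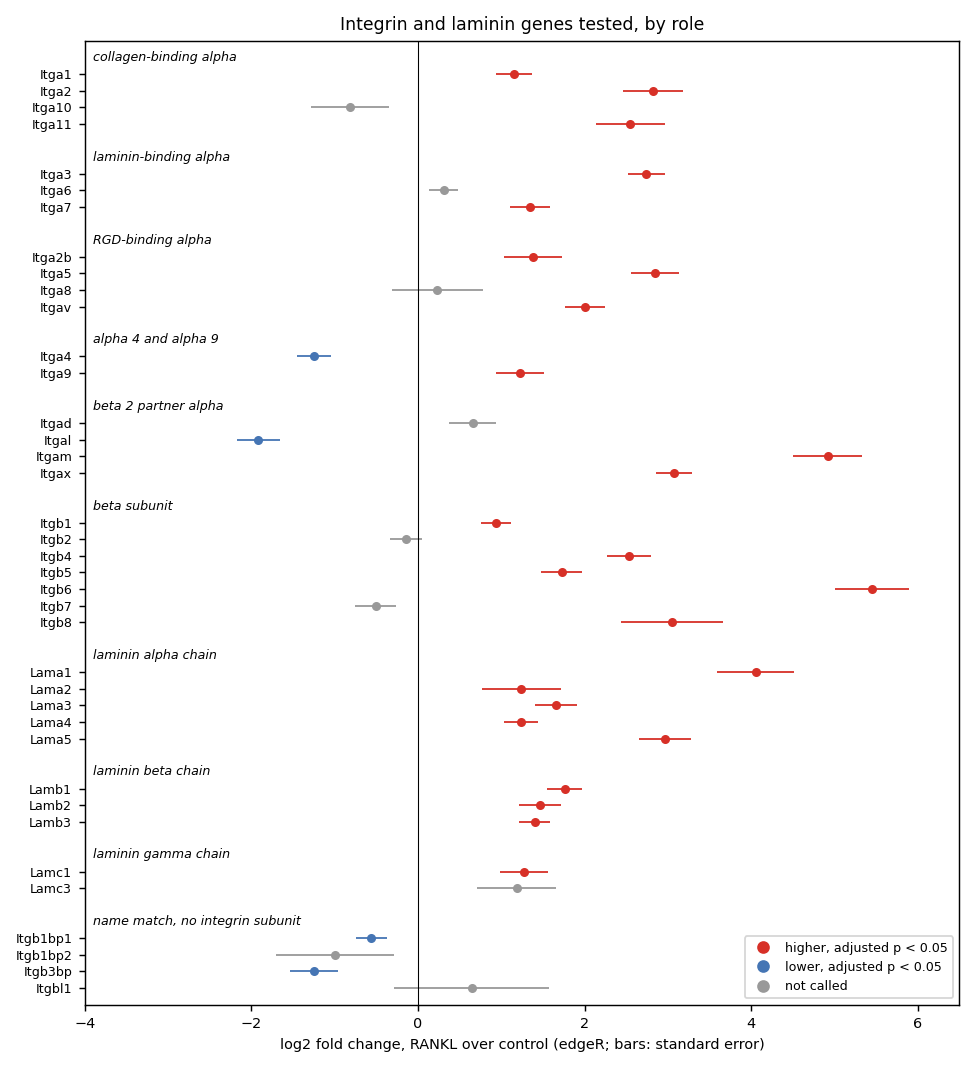
Log2 fold change (RANKL over control, horizontal axis) of 38 tested members, grouped by role; points are edgeR estimates, bars are standard errors, and colour gives the call. Itgb6 at 5.45 and Itgam at 4.92 lie farthest right, and Itgal at -1.92 lies farthest left.

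Lama3 and Lamb3, laminin chains of stratified epithelium, both rose. Lama3, the alpha 3 chain (chr18:12333417-12583013 in GRCm38), had 60.7, 51.1 and 30.5 CPM in control replicates 1, 2 and 3 and 171, 152 and 126 CPM in RANKL replicates 1, 2 and 3. Lamb3, the beta 3 chain (chr1:193294353-193343878), had 57.8, 37.9 and 44.7 CPM in control and 122, 137 and 111 CPM in RANKL. For neither gene did the groups overlap, and the log2 fold changes were 1.66 ± 0.25 (SE, adjusted p = 0.000349 by edgeR) for Lama3 and 1.40 ± 0.19 (SE, adjusted p = 0.000182 by edgeR) for Lamb3. Lama3 reads per Lamb3 read, a ratio within each library that library scaling cannot move, stayed in overlapping ranges, at 1.05, 1.35 and 0.682 in control and 1.40, 1.11 and 1.13 in RANKL. Set against the summed epithelial markers of the same library, Lamb3 took 3.36, 2.64 and 2.97 CPM per 100 marker CPM in control and 2.20, 2.03 and 2.07 in RANKL, with no overlap and lower values in RANKL. Other members went either way on this measure (mean ± SD, n = 3 per group). Lama5 went from 0.998 ± 0.430 to 2.03 ± 0.349, Itga3 from 1.20 ± 0.130 to 2.11 ± 0.209, Itgb4 from 2.19 ± 0.725 to 3.36 ± 0.0958 and Itgb6 from 0.0317 ± 0.0165 to 0.365 ± 0.0703, each higher in RANKL with no overlap. Itga6 went from 19.6 ± 1.61 to 6.45 ± 0.504, lower with no overlap, and Lama3 overlapped, from 3.04 ± 0.876 to 2.56 ± 0.450. The epithelial markers did not move alike. RANKL over control by group means ran from 1.245-fold for Krt18 to 11.3-fold for Epcam. Krt5, the largest part of the sum in RANKL, went from 392 to 2360.5 CPM. Direction on this measure can therefore depend on which markers are summed. Alpha 6 is also found on thymocytes, and their part in the Itga6 value was not tested. The ratios of reads or CPM between genes given here and below were chosen after the values were seen and were not tested.

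Lamc1, the gamma chain shared by most basement membrane laminins (chr1:153218922-153332786), had 80.2, 55.6 and 33.9 CPM in control and 159, 144 and 106.8 CPM in RANKL, a log2 fold change of 1.27 ± 0.29 (SE, adjusted p = 0.00378 by edgeR). Lamc3, another gamma chain gene, was low, with 32, 24 and 23 reads in control and 87, 35 and 66 in RANKL, and was not called at 1.19 ± 0.47 (SE, adjusted p = 0.0505 by edgeR). Without RANKL replicate 2, its lowest RANKL library, it was called at 1.55 (edgeR adjusted p = 0.00809). It also passed the threshold with all libraries under RLE factors (0.0486), upper-quartile factors (0.0397), a CPM filter (0.0468), DESeq2 (0.0374) and edgeR without robust estimation (0.0490), each an adjusted p.

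Among the other alpha chains the largest increase was in Lama1, the alpha chain of embryonic basement membranes (chr17:67697127-67822645). It had 27, 23 and 10 reads in control and 462, 395 and 219 in RANKL, or 1.42, 1.19 and 0.478 CPM in control and 24.9, 16.1 and 10.3 CPM in RANKL. The log2 fold change was 4.05 ± 0.47 (SE, adjusted p = 7.03e-05 by edgeR). Lama5, the broadly used epithelial and vascular alpha chain (chr2:180176373-180225904), had 16.7, 20.7 and 8.79 CPM in control and 131, 138 and 89.6 CPM in RANKL, a log2 fold change of 2.96 ± 0.31 (SE, adjusted p = 4.38e-05 by edgeR). Lama4, the alpha chain of vessel and mesenchymal basement membranes (chr10:38965515-39110188), had 21.6, 16.4 and 15.9 CPM in control and 43.3, 49.4 and 34.7 CPM in RANKL, a log2 fold change of 1.24 ± 0.20 (SE, adjusted p = 0.00057 by edgeR). Every RANKL library was above every control library for all 3 genes. Lama5 reads per Lama4 read were 0.773, 1.26 and 0.553 in control and 3.03, 2.80 and 2.58 in RANKL, with no overlap. Lama2, the alpha chain of muscle and nerve, had 11.5, 8.45 and 5.30 CPM in control and 36.5, 10.7 and 12.8 CPM in RANKL. Its groups overlapped, RANKL replicate 1 stood apart, and the call at 1.24 ± 0.47 (SE, adjusted p = 0.0418 by edgeR) was lost without that library, at 0.52 (edgeR adjusted p = 0.208). It was also lost without control replicate 2 (edgeR adjusted p = 0.108) or control replicate 3 (edgeR adjusted p = 0.151), and with limma-voom (0.0816), no low-count filter (0.0658) and a test against a 1.5-fold change (0.106), each an adjusted p. Skeletal muscle markers summed to 50.7, 80.04 and 4.11 CPM in control and 69.2, 7.52 and 10.6 CPM in RANKL. Schwann cell markers summed to 238, 164 and 183 CPM in control and 144, 113 and 117 CPM in RANKL. Both were highest of the RANKL libraries in replicate 1, and their part in the Lama2 value was not tested.

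Both remaining beta chains rose. Lamb1, the common beta chain (chr12:31265146-31329644), had 53.8, 48.2 and 32.3 CPM in control and 147, 175 and 132 CPM in RANKL, a log2 fold change of 1.76 ± 0.22 (SE, adjusted p = 0.000101 by edgeR). Lamb2, a beta chain of vessel, kidney and synaptic basement membranes (chr9:108479847-108490530), had 20.8, 14.9 and 10.6 CPM in control and 49.0, 41.1 and 37.3 CPM in RANKL, a log2 fold change of 1.46 ± 0.25 (SE, adjusted p = 0.000746 by edgeR). Control replicate 3 was the lowest control library for both, as for 27 of the 39 tested members, while control replicate 1 was the highest for 30 of them.

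**Figure D2:**
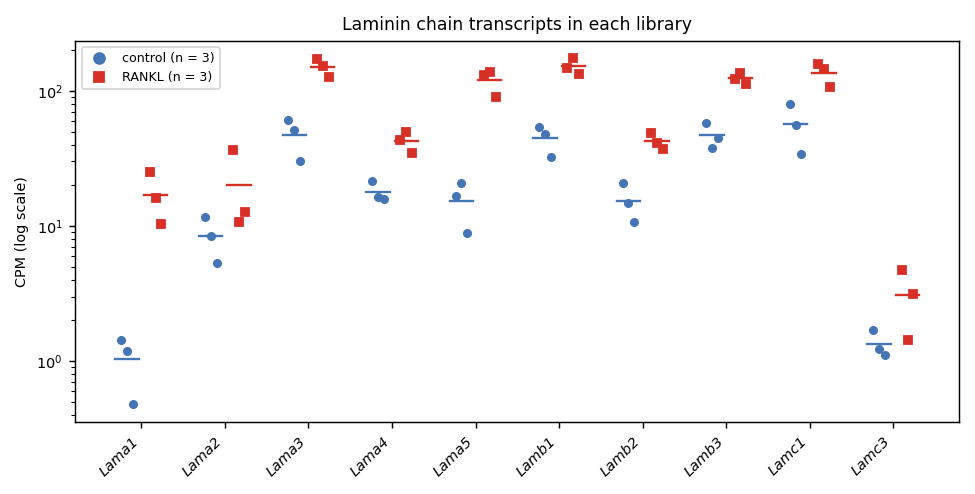
CPM of 10 laminin chains (log scale) in each library, replicates 1, 2 and 3 from left to right in each cluster; circles are control, squares RANKL, and lines group means. For Lama5 the RANKL libraries sit between 89.6 and 138 CPM, above the control libraries, while Lama2 and Lamc3 overlap between groups.

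Of the 3 laminin-binding alpha subunits, Itga3 and Itga7 rose and Itga6 was not called. Itga6 and Itgb4 form the alpha 6 beta 4 integrin of hemidesmosomes, the plaques that tie keratin filaments to laminin, and alpha 6 also pairs with beta 1 on many cells, thymocytes included. Itgb4 (chr11:115974725-116008412) had 42.9, 39.1 and 20.6 CPM in control and 192, 220.0 and 180.0 CPM in RANKL, a log2 fold change of 2.53 ± 0.27 (SE, adjusted p = 4.26e-05 by edgeR). Itga6 (chr2:71786886-71858427) had 364, 283 and 269.8 CPM in control and 388, 403 and 342 CPM in RANKL. Its groups overlapped and it was not called, at 0.31 ± 0.18 (SE, adjusted p = 0.152 by edgeR). Itga6 reads per Itgb4 read were 8.48, 7.24 and 13.1 in control and 2.02, 1.83 and 1.90 in RANKL, with no overlap. Itga3, the alpha chain of another epithelial laminin receptor (chr11:95044475-95076844), had 23.1, 16.9 and 16.3 CPM in control and 117, 157 and 102.8 CPM in RANKL, a log2 fold change of 2.74 ± 0.22 (SE, adjusted p = 1.19e-05 by edgeR). Itga3 reads per Itga6 read were 0.0634, 0.0597 and 0.0606 in control and 0.300, 0.388 and 0.300 in RANKL. Itga7, the laminin receptor alpha chain of muscle (chr10:128933421-128958286), had 6.48, 4.95 and 5.02 CPM in control and 14.6, 11.8 and 15.4 CPM in RANKL, a log2 fold change of 1.34 ± 0.24 (SE, adjusted p = 0.000974 by edgeR), while 5 skeletal muscle markers were not called. Those skeletal muscle markers varied widely within both groups, at 4.11 to 80.04 summed CPM in control and 7.52 to 69.2 in RANKL. Smooth muscle and pericyte markers rose in 5 of 6. The part of either tissue in the Itga7 value was not tested.

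Itgb1, the beta subunit shared by the largest number of alpha partners (chr8:128685654-128733579), had 337, 300.3 and 315 CPM in control and 519.9, 733 and 566 CPM in RANKL. It varied least of the tested members among control libraries, with a coefficient of variation of 5.87%. The groups did not overlap and the log2 fold change was 0.93 ± 0.18 (SE, adjusted p = 0.00157 by edgeR). Itga5, the alpha subunit of the classical fibronectin receptor that pairs with beta 1 (chr15:103344286-103366791), had 16.4, 13.97 and 9.17 CPM in control and 79.5, 131 and 73.0 CPM in RANKL, a log2 fold change of 2.85 ± 0.29 (SE, adjusted p = 3.76e-05 by edgeR). RANKL replicate 2 was highest for Itgb1 and Itga5, as it was for 8 of the marker lists above. Itga5 reads per Itgb1 read were 0.0486, 0.0465 and 0.0291 in control and 0.153, 0.179 and 0.129 in RANKL.

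Collagen-binding alpha subunits, which all pair with beta 1, rose in 3 of 4. Itga2, the collagen receptor subunit of epithelium and platelets (chr13:114833081-114932100), had 1.74, 1.08 and 1.00 CPM in control and 10.4, 10.2 and 6.41 CPM in RANKL, a log2 fold change of 2.82 ± 0.36 (SE, adjusted p = 0.000124 by edgeR). Itga1, a collagen receptor subunit of mesenchyme and tissue lymphocytes, lies 25978 bp away on chromosome 13 with no protein-coding gene between. It had 16.7, 12.0 and 11.6 CPM in control and 32.0, 33.1 and 24.5 CPM in RANKL, a log2 fold change of 1.16 ± 0.22 (SE, adjusted p = 0.00135 by edgeR). Itga11, the fibrillar collagen receptor subunit of fibroblasts, had 1.74, 1.34 and 0.812 CPM in control and 7.48, 10.4 and 4.90 CPM in RANKL, a log2 fold change of 2.55 ± 0.41 (SE, adjusted p = 0.000504 by edgeR). All 3 rose without overlap between groups. Itga10, a cartilage collagen receptor subunit, was not called at -0.82 ± 0.47 (SE, adjusted p = 0.151 by edgeR), with 2.32, 5.31 and 1.62 CPM in control and 1.67, 1.59 and 1.98 CPM in RANKL and control replicate 2 apart from the rest.

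Itgav, the alpha subunit that pairs with several beta subunits to bind the RGD motif of vitronectin, fibronectin and latent TGF-beta, rose together with the 3 of its beta partners besides beta 1 that belong to the set. It (chr2:83722303-83806917) had 66.4, 53.0 and 36.7 CPM in control and 250.3, 183 and 193 CPM in RANKL, a log2 fold change of 2.00 ± 0.24 (SE, adjusted p = 8.09e-05 by edgeR). Itgb5 (chr16:33829665-33949338), the vitronectin receptor partner, had 52.8, 30.6 and 33.6 CPM in control and 153, 133 and 100.05 CPM in RANKL, a log2 fold change of 1.72 ± 0.25 (SE, adjusted p = 0.000247 by edgeR). Itgb6, a beta subunit restricted to epithelium and known from wounds as an activator of latent TGF-beta (chr2:60598292-60722603), had 14, 11 and 4 reads in control and 319, 734 and 390 in RANKL. That was 0.738, 0.567 and 0.191 CPM against 17.2, 29.8 and 18.4 CPM, where 3 reads corresponded to 0.122 to 0.162 CPM. The log2 fold change of 5.45 ± 0.45 (SE, adjusted p = 1.27e-05 by edgeR) was the largest increase among the members. Itgb8, another activator of latent TGF-beta (chr12:119162803-119238276), had 51, 15 and 10 reads in control and 319, 172 and 180 in RANKL, a log2 fold change of 3.05 ± 0.61 (SE, adjusted p = 0.00186 by edgeR). Control replicate 1 held most of its control reads, and without it the log2 fold change was 4.09. RANKL replicate 1 was highest for Itgav, Itgb5 and Itgb8 but lowest for Itgb6, which was highest in RANKL replicate 2. Summed cornified epithelium and summed neutrophil markers both stood in the same order as Itgb6 over the RANKL libraries. Cornified epithelium markers were at 1071, 3015 and 1364 summed CPM in RANKL replicates 1, 2 and 3 and 50.03, 44.3 and 32.7 in control. Most of that RANKL sum was Sprr1a, at 730, 2399 and 955 CPM. Sprr1a, Ivl and Krtdap stood in the order of Itgb6, while Krt1, Krt10 and Lor did not. Of the neutrophil markers, S100a8 and Mmp8 did not. The other RGD-binding alpha subunits besides Itga5 were low. Itga2b, the platelet fibrinogen receptor subunit, had 1.90, 2.27 and 2.34 CPM in control and 3.50, 6.67 and 6.79 CPM in RANKL, a log2 fold change of 1.38 ± 0.35 (SE, adjusted p = 0.00656 by edgeR). Of 4 other platelet markers tested 3 rose, Ppbp, Pf4 and Gp9, the last with 31, 15 and 24 reads in RANKL. Gp1ba was not called, at -0.13 (adjusted p = 0.799 by edgeR), and Gp6 was too low to test. Itga8, a mesenchymal subunit, had 6.54, 3.92 and 2.10 CPM in control and 8.77, 2.28 and 3.77 CPM in RANKL, overlapped and was not called, at 0.23 ± 0.54 (SE, adjusted p = 0.722 by edgeR).

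The window of 250 bases before to 50 bases after a start of Itgb6 is shown because the gene rose most among members (chr2:60722554-60722853, minus strand of GRCm38.p6, RefSeq). It held none of 3 motifs searched on both strands: TGANTCA, the AP-1 motif, GAGGAA, a core of PU.1 motifs, and TGTGGT, a core of RUNX motifs. No match in the windows printed here overlaps another. A second RefSeq start of the gene, inside it, held 1 GAGGAA. The counts are per gene and do not tell transcripts of these starts apart.
Itgb6: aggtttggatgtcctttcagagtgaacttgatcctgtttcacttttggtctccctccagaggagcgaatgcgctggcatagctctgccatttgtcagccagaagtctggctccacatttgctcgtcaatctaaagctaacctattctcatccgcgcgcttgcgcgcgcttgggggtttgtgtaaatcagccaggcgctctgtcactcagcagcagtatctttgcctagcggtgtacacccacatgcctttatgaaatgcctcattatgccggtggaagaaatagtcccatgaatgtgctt

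Genes of the leukocyte integrins that share the beta 2 subunit went in opposite directions: Itgam and Itgax rose, Itgal fell, and Itgb2 and Itgad were not called. Itgb2 itself (chr10:77530329-77565708) had 385, 292 and 336 CPM in control and 240.5, 337 and 342 CPM in RANKL. Its groups overlapped and it was not called, at -0.14 ± 0.19 (SE, adjusted p = 0.547 by edgeR). Itgal, which makes the alpha L subunit of LFA-1, the lymphocyte receptor for ICAM proteins (chr7:127296139-127335137), had 634, 550.2 and 462 CPM in control and 104, 132 and 199.9 CPM in RANKL. It fell, with a log2 fold change of -1.92 ± 0.25 (SE, adjusted p = 0.000162 by edgeR), 3.78-fold lower by group means. Among RANKL libraries Itgal was highest in replicate 3, as were thymocyte markers, at 306, 496 and 1019.7 summed CPM in replicates 1, 2 and 3. Dendritic cell markers, at 146, 165 and 221, and B cell markers, at 87.6, 43.1 and 110.4, were also highest in replicate 3. B cell markers summed to 100.5 to 110.3 CPM in control, and none of the 5 was called. The part of these cell types in the Itgal value was not tested.

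Itgam, the alpha M subunit of the Mac-1 complement receptor of neutrophils and macrophages (chr7:128062640-128118491), had 10.2, 9.90 and 6.88 CPM in control and 140.4, 434 and 239 CPM in RANKL. All RANKL libraries were far above all control libraries, and among themselves they spanned 3.09-fold. The log2 fold change was 4.92 ± 0.42 (SE, adjusted p = 1.44e-05 by edgeR), or 30.2-fold by group means. Neutrophil markers in the same RANKL libraries summed to 1883, 4470.2 and 2280.1 CPM in replicates 1, 2 and 3, the same order as Itgam and as summed cornified epithelium markers. Singly, S100a8 and Mmp8 among the neutrophil markers and Krt1, Krt10 and Lor among the cornified ones stood in another order. Macrophage markers summed to 1961, 2065 and 1508 CPM. Itgax, the alpha X subunit of dendritic cells and macrophages (chr7:128129526-128150657), had 24.8, 16.5 and 18.8 CPM in control and 150.1, 155 and 201 CPM in RANKL, a log2 fold change of 3.07 ± 0.21 (SE, adjusted p = 6.71e-06 by edgeR). Unlike Itgam it was highest in RANKL replicate 3, and Itgam reads per Itgax read were 0.936, 2.79 and 1.19 in RANKL against 0.410, 0.60 and 0.366 in control. Of 7 dendritic cell markers 3 rose and 2 fell, and their summed CPM was 151 to 226 in control and 146 to 221 in RANKL. Most of that sum was Ccr7, not called, at 138, 92.4 and 160 CPM in control and 95.1, 102 and 135 CPM in RANKL. Zbtb46, Cd209a and Siglech were those that rose, and Xcr1 and Clec9a those that fell. Itgad, the alpha D subunit of tissue macrophages (chr7:128173933-128205504), had 7.80, 4.69 and 5.88 CPM in control and 8.99, 8.25 and 11.8 CPM in RANKL. Every RANKL library was above every control library, yet it was not called, at 0.66 ± 0.28 (SE, adjusted p = 0.0639 by edgeR). It passed the threshold with upper-quartile factors (0.0364), with DESeq2 (0.0451) and without control replicate 1 (0.0373), each an adjusted p. Exons of Itgad overlap genes on the opposite strand, and no source used here gives the strand setting of the counting, so its reads may include theirs.

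Itgam, Itgax and Itgad lie in a row on chromosome 7 with gaps of 11034 and 23275 bp and no protein-coding gene between them, and Itgal lies 728 kb from Itgam. The promoter windows of the first pair are shown because these neighbours rose by different amounts and differed in which RANKL library was highest. Capitals mark GAGGAA (or its reverse complement TTCCTC) in Itgam, with 3 matches, and in Itgax TGANTCA and TGTGGT with 1 match each. Itgam is at chr7:128062390-128062689 and Itgax at chr7:128129300-128129599, both on the plus strand of GRCm38.p6, from RefSeq.
Itgam: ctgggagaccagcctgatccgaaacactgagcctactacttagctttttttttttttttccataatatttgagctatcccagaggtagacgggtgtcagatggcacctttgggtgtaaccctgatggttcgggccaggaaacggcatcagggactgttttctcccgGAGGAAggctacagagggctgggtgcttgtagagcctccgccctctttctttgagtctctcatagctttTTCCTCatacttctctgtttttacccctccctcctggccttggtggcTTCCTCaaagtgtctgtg
Itgax: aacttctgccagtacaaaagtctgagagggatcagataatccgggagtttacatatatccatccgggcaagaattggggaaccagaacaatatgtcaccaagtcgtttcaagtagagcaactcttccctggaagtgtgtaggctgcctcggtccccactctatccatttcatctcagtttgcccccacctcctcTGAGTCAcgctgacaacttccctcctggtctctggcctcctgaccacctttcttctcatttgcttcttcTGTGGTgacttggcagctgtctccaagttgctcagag

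Of 32851 promoter windows of 300 bases, 28.3% held GAGGAA, 7.81% held TGANTCA and 16.8% held TGTGGT. Windows were found for 27 members, 30 windows in all, of which 15 held GAGGAA, 3 held TGANTCA and 3 held TGTGGT. Such a match is a string of letters and not a shown binding site.

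Summed over Itgal, Itgam, Itgax and Itgad, the alpha partners of beta 2 came to 677, 581 and 494 CPM in control and 404, 729.7 and 652 CPM in RANKL, ranges that overlapped as those of Itgb2 did. What differed was the make-up. Itgal took 93.7, 94.7 and 93.6% of these reads in control and 25.8, 18.1 and 30.7% in RANKL, a mean of 94.0% ± 0.584 against 24.8% ± 6.33 (SD, n = 3; exact two-sided permutation p = 0.1). With 3 libraries against 3 that is the smallest p the test allows, for this and for the shares below, and adjusted over the 5 shares computed it is 0.1 as well. Each 95% Wilson interval on a library's Itgal share spanned at most 1.98 points and covers counting error only. Itgb2l, a relative of Itgb2, had 2, 2 and 3 reads in control and 1, 8 and 9 in RANKL and was the only member below the low-count filter. It was not tested.

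Of the alpha 4 integrins of lymphocyte homing, Itga4 fell and Itgb7 was not called. Itga4, the alpha 4 subunit that binds VCAM-1 with beta 1 and MAdCAM-1 with beta 7 (chr2:79255426-79333114), had 86.8, 94.1 and 82.6 CPM in control and 28.3, 33.8 and 48.7 CPM in RANKL. It fell, with a log2 fold change of -1.25 ± 0.21 (SE, adjusted p = 0.000636 by edgeR), and among RANKL libraries it too was highest in replicate 3. Itgb7 (chr15:102215994-102233405) had 105.2, 102 and 116 CPM in control and 61.8, 56.6 and 109 CPM in RANKL. RANKL replicate 3 lay within the control range, the other 2 RANKL libraries lay below it, and the gene was not called, at -0.51 ± 0.24 (SE, adjusted p = 0.0919 by edgeR). It was called lower without RANKL replicate 3, at -0.84 (edgeR adjusted p = 0.00398), and with all libraries when no low-count filter was used, at -0.61 (edgeR adjusted p = 0.0358). Itga4 reads per Itgb7 read were 0.825, 0.918 and 0.710 in control and 0.458, 0.598 and 0.445 in RANKL. Itga9, a relative of alpha 4 found on smooth muscle, epithelium, lymphatic endothelium and neutrophils (chr9:118606709-118901003), moved the other way, with 16.3, 12.0 and 11.4 CPM in control and 22.9, 45.3 and 24.8 CPM in RANKL and a log2 fold change of 1.23 ± 0.29 (SE, adjusted p = 0.00437 by edgeR). RANKL replicate 2 was its highest library.

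**Figure D3:**
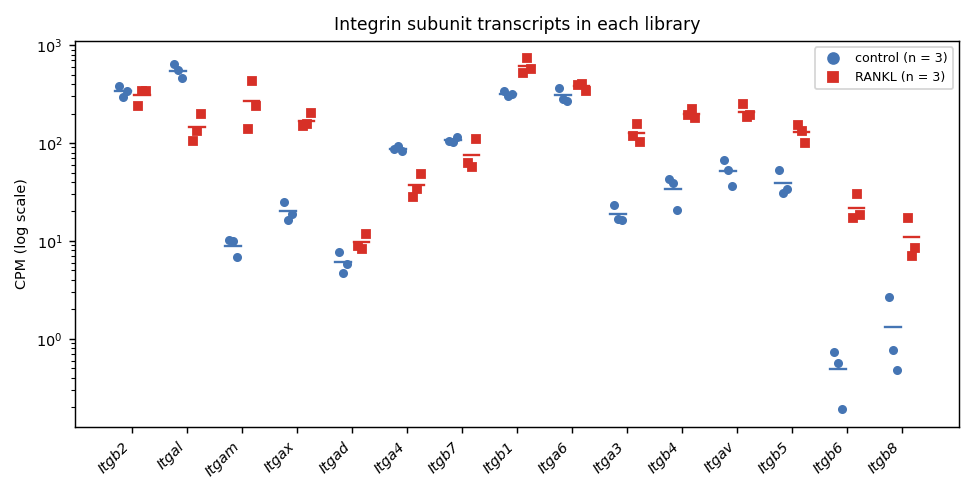
CPM of 15 integrin subunits (log scale) in each library, replicates 1, 2 and 3 from left to right in each cluster; circles are control, squares RANKL, and lines group means. Itgb2, Itga6 and Itgb7 overlapped between groups, Itgal and Itga4 lay lower in RANKL, and Itgam and Itgb6 were farthest apart.

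Shares of reads within a family were compared next, since a share within a library does not depend on library scaling. Itgb4 took 11.3, 11.5 and 6.14% of Itgb1 plus Itgb4 reads in control and 27.0, 23.1 and 24.1% in RANKL. Itgb7 took 23.8, 25.4 and 27.0% of Itgb1 plus Itgb7 reads in control and 10.6, 7.17 and 16.2% in RANKL. Both are beta partners of alpha 4, but beta 1 also pairs with many other alpha subunits. Itgb1 rose while Itgb7 was not called, so this share does not show which partner alpha 4 had. Itgb6 took 1.31, 1.78 and 0.558% of Itgb5, Itgb6 and Itgb8 reads in control and 9.16, 17.6 and 14.5% in RANKL. In none of these 3 shares did the groups overlap, and the exact two-sided permutation p was 0.1 for each (n = 3 per group). The widest 95% Wilson interval of any library was 2.66 points for the Itgb6 share. Weighted per kilobase of transcript, the group means were 92.6% and 21.8% for Itgal, 6.18% and 16.8% for Itgb4, 32.6% and 15.3% for Itgb7 and 0.851% and 10.2% for Itgb6.

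**Figure D4:**
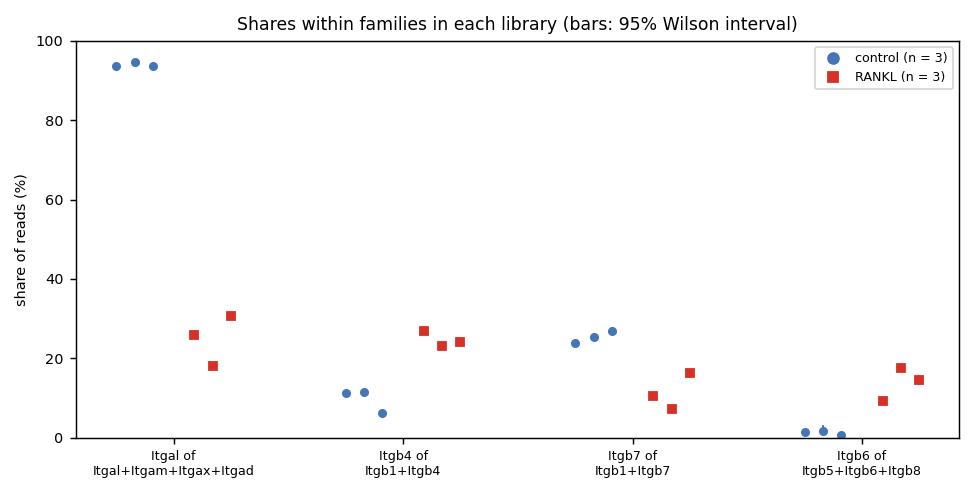
Share of reads (percent, vertical axis) of the named genes within each family in each library; circles are control replicates, squares RANKL replicates, and bars 95% Wilson intervals, mostly hidden by the symbols. The Itgal share was between 93.6% and 94.7% in control and between 18.1% and 30.7% in RANKL, the widest gap of the 4 shown.

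Levels of different members were ranked per kilobase, as CPM divided by the length of the longest coding transcript of each gene. The ratios of reads or CPM between genes above were not scaled by length and were compared between groups. In control thymus the highest were Itgb2 at 114 ± 15.7 and Itgal at 105.1 ± 16.5 CPM per kilobase (SD, n = 3), followed by Itgb1 at 83.2 ± 4.89 and Itga6 at 70.9 ± 11.8. Library values of Itgb2 and Itgal overlapped, and so did those of Itgb1 and Itga6. Itgb7 came next at 40.2 ± 2.72. In RANKL thymus Itgb1 stood highest at 159 ± 29.3 CPM per kilobase. Below it came Itgb2 at 103.2 ± 19.3 and Itga6 at 87.7 ± 7.38, whose library values overlapped. Itgam at 57.9 ± 31.9 overlapped both these genes and Itgax at 41.7 ± 6.88. By this measure Itgal went from rank 2 of the 40 members to rank 11, Itgam from 22 to 5, and Itgb6 from 39 to 22.

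Of the 4 genes caught by name alone, 2 fell and none rose. Itgb1bp1 encodes ICAP-1, a protein that binds the beta 1 tail and dampens integrin activation, and Itgb3bp encodes a centromere protein. Itgb3bp had 7.70, 12.0 and 14.8 CPM in control and 4.68, 4.60 and 5.23 CPM in RANKL and fell to -1.25 ± 0.29 (SE, adjusted p = 0.00413 by edgeR). Itgb1bp1 had 49.2, 47.0 and 65.2 CPM in control and 31.4, 39.0 and 39.1 CPM in RANKL and fell to -0.56 ± 0.18 (SE, adjusted p = 0.0235 by edgeR), a call lost without control replicate 3 (edgeR adjusted p = 0.0614), RANKL replicate 1 (0.116) or RANKL replicate 3 (0.0571). Itgb1bp2, the muscle protein melusin, was not called at -0.996 ± 0.71 (SE, adjusted p = 0.241 by edgeR), but was called lower without control replicate 3, at -1.53. Itgbl1, a secreted protein with integrin-like repeats, was not called at 0.64 ± 0.93 (SE, adjusted p = 0.564 by edgeR), with 82, 2 and 22 reads in the RANKL libraries.

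Genes that work with integrins and laminins were read from 5 lists in the same fit. Hemidesmosome and anchoring partners rose in 6 of 8, with a median log2 fold change of 2.52 and none lower, beside 33.8% higher and 29.6% lower over all genes tested. Col17a1, the transmembrane collagen of hemidesmosomes, went from 15.3 ± 4.88 to 219 ± 45.7 CPM (mean ± SD, n = 3), a log2 fold change of 3.84 ± 0.27 (SE, adjusted p = 6.94e-06 by edgeR). Krt14 and Krt5, the basal keratins that are also among the epithelial markers, rose by 3.35 and 2.59, and Cd151, a tetraspanin bound to laminin receptors, by 1.10. Also among the 6 were Col7a1, at 3.40, and Dsp, a gene of cell-cell junctions and not of hemidesmosomes, at 2.44. Both were named after their values were seen. The plakins that link the plaque to filaments were not called, at 0.27 for Plec and -0.31 for Dst. Dst was called lower without control replicate 3, at -0.61 (edgeR adjusted p = 0.0264).

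Basement membrane partners rose in 15 of 19 and fell in 1, beside 33.8% higher and 29.6% lower over all genes tested, with a median of 1.88. The type IV collagens Col4a1 and Col4a2, which share a promoter region and form the main network, rose by 2.71 ± 0.29 and 2.56 ± 0.31 (SE). Sparc, a collagen-binding matrix protein, rose by 2.93 and Col18a1, the source of endostatin, by 2.11. Npnt, which encodes nephronectin, a ligand of the alpha 8 beta 1 integrin, went from 23.4 ± 8.02 to 12.9 ± 4.18 CPM and was called lower at -0.86 ± 0.31 (SE, adjusted p = 0.0348 by edgeR). That call was lost with upper-quartile factors (0.0654) and without control replicate 1 (0.127), RANKL replicate 2 (0.0937) or RANKL replicate 3 (0.0594), each an adjusted p. Ntn4, Fras1 and Frem2 were not called, at 0.19, 0.30 and -1.13. Frem2 was called lower with DESeq2 (adjusted p = 0.0405), with no low-count filter (0.0342) and without control replicate 3 (0.034) or RANKL replicate 1 (0.0266).

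Matrix ligands rose in 11 of 13 tested and fell in none, beside 33.8% higher and 29.6% lower over all genes tested, with a median of 1.89. Spp1, which encodes osteopontin, a ligand of av, alpha 9 and alpha 4 integrins, went from 4.27, 2.83 and 4.92 CPM in control to 1244, 3199 and 1548 CPM in RANKL, a log2 fold change of 8.96 ± 0.49 (SE, adjusted p = 3.64e-06 by edgeR). Fn1, fibronectin, the ligand of alpha 5 beta 1, went from 153, 84.3 and 55.8 to 1150.0, 2252 and 869 CPM, a log2 fold change of 3.87 ± 0.46 (SE, adjusted p = 8.92e-05 by edgeR). Thbs1, thrombospondin 1, rose by 3.84 and Ltbp1, which holds latent TGF-beta in the matrix, by 1.89. Tgfb1, the cytokine that the beta 6 and beta 8 integrins activate, was not called at 0.071 ± 0.20 (SE, adjusted p = 0.773 by edgeR), and Vtn, vitronectin, was not called at -0.76. Of 10 cell-surface ligands of leukocyte integrins tested, 5 rose and 2 fell, beside 33.8% higher and 29.6% lower over all genes tested, with a median of 0.83. Madcam1, a ligand of alpha 4 beta 7, had 1.79, 0.722 and 0.908 CPM in control and 21.2, 7.24 and 16.2 CPM in RANKL, a log2 fold change of 3.70 ± 0.49 (SE, adjusted p = 0.000158 by edgeR). Icam1, a ligand of LFA-1 and Mac-1, rose by 1.60 ± 0.20 (SE). Vcam1, a ligand of alpha 4 beta 1, was called at 0.54 ± 0.21 (SE, adjusted p = 0.0472 by edgeR) although its groups overlapped. That call was lost with limma-voom (0.0513), no low-count filter (0.0748), edgeR without robust estimation (0.0504), a test against a 1.5-fold change (0.486) and a block for title numbers (0.103), each an adjusted p. Leaving out any library other than RANKL replicate 2 also ended it, with adjusted p from edgeR of 0.0602, 0.151 and 0.109 without control replicates 1, 2 and 3 and of 0.119 and 0.0926 without RANKL replicates 1 and 3. These 3 genes were named after their values were seen. F11r, a junctional ligand of LFA-1, rose by 3.27 and Cdh1, E-cadherin, also among the epithelial markers, by 3.18. Icam2, an endothelial and leukocyte ligand of LFA-1, went from 83.8, 91.5 and 109.7 to 6.89, 13.3 and 17.2 CPM, a log2 fold change of -2.92 ± 0.30 (SE, adjusted p = 4.06e-05 by edgeR), and Thy1, a surface protein abundant on thymocytes, fell, at -2.68. Icam5, Jam2 and Jam3 were not called, at 1.11, -0.12 and -0.0051, and Jam3 turned to 0.096 with upper-quartile factors. Icam5 was called higher without control replicate 2, at 1.81, and under a block for title numbers, at 1.84 (edgeR adjusted p = 0.0242).

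Adaptors and activators inside the cell went both ways. Of 28 tested, 12 rose, 5 fell and 11 were not called, with a median of 0.24, beside 33.8% called higher and 29.6% lower of all genes tested. Of the kindlins, which switch integrins on by binding beta tails, 2 rose and 1 fell. Fermt1, the epithelial kindlin, went from 14.2, 13.0 and 8.74 to 66.8, 63.0 and 60.0 CPM, a log2 fold change of 2.40 ± 0.21 (SE, adjusted p = 1.70e-05 by edgeR). Fermt2, the widely expressed kindlin, rose by 1.501 ± 0.22 (SE). Fermt3, the kindlin of blood cells, went from 266, 244 and 259.7 to 83.2, 119.8 and 136 CPM, a log2 fold change of -1.18 ± 0.20 (SE, adjusted p = 0.000637 by edgeR). Parvg, the leukocyte form of the parvins, which tie the integrin-linked kinase to actin, fell, at -1.91. Bcar1, the scaffold p130Cas, rose by 3.04, Tns4, an epithelial tensin, by 3.04 and the kinase gene Src by 2.44. The other genes of the list that fell besides Fermt3 and Parvg were Rasgrp2 at -2.54, Apbb1ip at -1.30 and Rap1a at -0.72. Rasgrp2 is an exchange factor for the GTPase Rap1, Apbb1ip a Rap1-binding adaptor and Rap1a a Rap1 gene. The other Rap1 gene of the list, Rap1b, was not called at -0.051 (adjusted p = 0.844 by edgeR), and neither was Tln1, the talin that binds beta tails, at -0.54 (adjusted p = 0.0786 by edgeR). Rap1b turned to 0.048 with upper-quartile factors, and Tln1 was called lower with no low-count filter (edgeR adjusted p = 0.0294) and without control replicate 3 (edgeR adjusted p = 0.0247). Fermt2 and the genes of this list that fell or were not called were named after their values were seen.

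**Figure D5:**
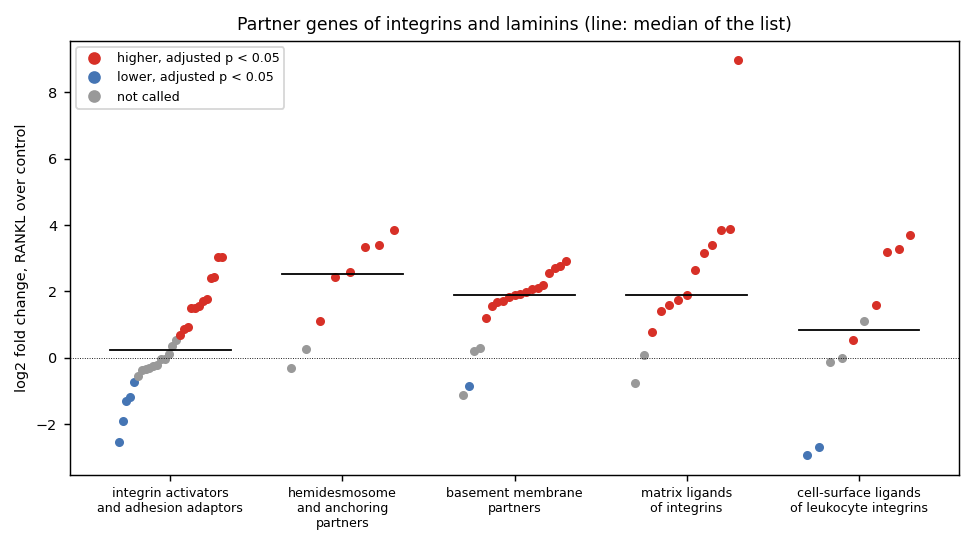
Log2 fold change (RANKL over control, vertical axis) of each tested gene of the 5 partner lists, sorted within its list; colour gives the edgeR call and black lines the list medians. Spp1 at 8.96 stands above all others, and the lower calls lie mostly among adaptors and cell-surface ligands.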

How the data were processed

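Polyadenylated RNA of whole thymus was sequenced from stranded libraries, per the labels' protocols. The authors deposited raw read counts per gene, which were used as deposited; STAR and mm10 are named per the submitters' processing notes, while no source used here gives the counter, annotation or strand setting. Genes passing filterByExpr (16096 of 24054) were fitted in R 4.3.3 with edgeR 4.0.16 (TMM factors, robust quasi-likelihood test, two-sided, Benjamini-Hochberg adjustment over all of them, threshold 0.05), with 3 libraries per group and no covariate. CPM used TMM-scaled totals, and SE is the log2 fold change over the root of F. The fit was also run on simulated counts in which few genes changed, as many up as down. That run cannot show how the fit does where most genes are called, as here. Shares used exact permutation tests and 95% Wilson intervals (scipy 1.17.1), which, like the floor of 3 reads, cover counting error only. Library replicates differed by more than sampling noise (chi-square per degree of freedom 31.68 to 67.91). Lengths came from the longest coding transcript in GENCODE M21, in place of the planned RefSeq transcript lengths, and coordinates and promoters from RefSeq for GRCm38.p6, the mm10 assembly, where all 40 members matched a coordinate. Exons of 12 members overlap another gene, and their reads may include those of that gene. The overlap is on the same strand for Itga1, Itga10 and Itgam. It is on the opposite strand for Itga4, Itga7, Itga8, Itgad, Itgb4, Lama2, Lama3, Lamc3 and Itgb1bp1. Members and lists were chosen with earlier results of these data known. Library values were named for laminin chains, the hemidesmosome, beta 2, alpha 4 and av families and the largest changes. Of each partner list the rule named up to 4 called genes with the smallest p, and all uncalled genes where there were 8 or fewer. Alternatives were other scaling factors, filters, thresholds, DESeq2 1.42.0, limma-voom (limma 3.58.1), a block for sample title numbers by range (shared by control replicate 1 and RANKL replicate 1, and by control replicate 3 and RANKL replicates 2 and 3) and leaving out each library. Protein sequences were not used here, and 1 member, counted in the totals, is not reported by its own values.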

Additional observations from a re-analysis of the deposited data

How the results depend on the processing

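Of 662 values of the 39 tested members under the alternatives, 631 kept their direction and side of the threshold, 12 lost a call, 12 gained a call and 7 changed sign, and 30 members did none of these under any alternative run. Leaving out each library in turn gave log2 fold changes of -0.42 to 0.69 for Itga8 (lowest without RANKL replicate 1, and below 0 also without control replicate 3), -0.26 to 0.049 for Itgb2 and -1.04 to 1.23 for Itgbl1 (below 0 without RANKL replicate 1). Itgbl1 turned to -0.65 with limma-voom. With a block for the title number range, Itgb1bp2 turned to 0.14 and Itgbl1 to -0.042. None of these 4 genes was called in the reported fit. Alternatives for partner genes were chosen after seeing the data. Leaving out each library gave -0.053 to 0.65 for Plec, -0.060 to 0.47 for Ntn4, -0.23 to 0.63 for Fras1, -0.11 to 0.25 for Tgfb1, -0.32 to 0.086 for Jam2, -0.17 to 0.23 for Jam3 and -0.19 to 0.16 for Rap1b, all uncalled genes. Tgfb1 turned to -0.012 with no low-count filter and -0.079 with the block. Rap1b turned to 0.048 and Jam3 to 0.096 with upper-quartile factors, and Jam3 to 0.011 with library totals, 0.027 with a CPM filter, 0.029 with limma-voom and 0.26 with the block. Of all genes tested, 2654 were lower in a test against a 1.5-fold change, against 4765. The count of basement membrane partners called lower, 1, became 0 with upper-quartile factors, at a threshold of 0.01 and in the 1.5-fold test, and 2 with no low-count filter and with DESeq2, and leaving out each library gave 0 to 2. Hemidesmosome partners called lower numbered 0 to 1 when each library was left out. Where no value shows it, the cause was not tested. Upper-quartile factors moved the median of all genes by 0.10. Replicate numbers follow accession order and pair no samples. The block for the title number range, in which control replicate 2 stands alone, gave 26 members higher and 4 lower, and 5236 higher and 4557 lower of all genes tested. Among members and named partner genes it changed the calls of Icam5, gained at 1.84, and Vcam1, lost at 0.51. Itgb2l, with 1 to 9 reads in a library, was too shallow to test.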
